A study of Mus musculus with 6 samples.

Results

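The 33 genes described here encode the fibroblast growth factors (FGFs), their receptors and the proteins that carry, co-bind or dock to them in the mouse. They were taken by name from the protein-coding genes of GENCODE M21, as every numbered Fgf gene, Fgfr1 to Fgfr4, the numbered Fgfbp genes, Fgfrl1, Kl, Klb, Frs2 and Frs3, and they are 33 of the 54532 genes in the count file. Messenger RNA was measured by RNA-Seq in whole epididymal fat, the visceral depot beside the epididymis, with 3 libraries from mice on the ND (4.5% fat) and 3 from mice on the HFD (60% fat). All mice were male C57BL/6J, began their diet at 4 weeks of age, stayed on it for 16 weeks and were labelled as untreated. The comparison addressed which genes differ between the diets in this depot.

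FGFs are secreted proteins that bind receptor tyrosine kinases at the cell surface. Paracrine FGFs need heparan sulfate as a cofactor and act close to the cell that makes them, while the endocrine FGFs circulate and need a Klotho protein beside the receptor. The bound receptor phosphorylates the docking adaptors Frs2 and Frs3, which pass the signal to the Ras and MAP kinase cascade. In adipose tissue, Fgf1 is known as a ligand needed when fat expands on a rich diet, Fgf10 as a ligand of preadipocyte growth and differentiation, and Fgf21 as a hormone that acts on adipocytes through Fgfr1 and beta-Klotho (Klb). The FGF homologous factors Fgf11 to Fgf14 share the fold but stay inside the cell, where they are best known for binding voltage-gated sodium channels.

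The 33 genes comprised 15 paracrine ligands, 3 endocrine ligands, 4 homologous factors, 4 receptor tyrosine kinases, the kinase-less receptor-like gene Fgfrl1, 2 Klotho co-receptors, 2 carrier proteins and 2 docking adaptors. Of these, 19 passed the filter on low counts and entered the test. By edgeR's quasi-likelihood test with Benjamini-Hochberg adjustment over all genes, 6 of the 19 differed at an adjusted p under 0.05. That is 31.6% of the tested FGF genes, beside 15.9% of all 15751 genes tested. Only Fgf13 rose on HFD, beside 9.85% of all genes, and Fgfr2, Fgf11, Fgf2, Fgfbp3 and Frs3 fell, beside 6.04% of all genes. The HFD values lay wholly below the ND values in 6 of the 19, beside 19.1% of all genes, and wholly above them in 1, beside 21.7% of all genes. The median log2 fold change of the 19 was -0.56, against 0.01 over all genes tested, with 13 negative and 6 positive values. When 1 library was left out, the number that fell was 1 without the first HFD or the first ND library. It was 2 without the second or the third ND library, 4 without the third HFD library and 7 without the second. Over all genes, 952 fell with every library, 94 without the first HFD library and 155 without the first ND library. Without the second or the third ND library 215 and 396 fell, without the third HFD library 743 and without the second 1572.

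Count totals lay between 16996896 and 18859320 per library, so that 3 counts, used as the floor, corresponded to 0.150 to 0.181 CPM (counts scaled by library size and composition). The third ND library (ND3) stood apart: the summed CPM of 12 epithelial and tubule markers was 290 there and between 8.35 and 11.5 in the other libraries, with Epcam at 37.5 CPM and Cdh16 at 41.8 CPM. The 12 adipocyte markers, which check the labelled tissue, summed to 36900 to 47100 CPM under ND, against 14900 to 35800 CPM under HFD. Of those 12, Retn, Slc2a4 and Cfd fell, Lep rose and 8 did not pass. Cfd alone made up much of the difference between the sums. It measured 13500, 15600 and 11800 CPM under ND, against 1160, 2500 and 162 CPM under HFD. Fabp4, also a large part of the sums, overlapped (12800, 13800 and 10800 CPM under ND, against 10100, 14400 and 6990 CPM under HFD). The 12 macrophage markers summed to 1420 to 1530 CPM under ND, against 3400 to 8110 CPM under HFD, and 8 of them rose. The progenitor markers summed to 2700 to 2990 and 2650 to 3390 CPM, the endothelial markers to 1410 to 1670 and 785 to 1480 CPM, and the mesothelial markers to 274 to 501 and 199 to 363 CPM. The mesothelial sum of 501 was that of ND3. There the listed keratins Krt8, Krt18 and Krt19 measured 81.1, 35.6 and 41.4 CPM, against at most 8.35, 4.86 and 18.7 CPM in any other library. In whole tissue a smaller number of cells of a type and less RNA per cell cannot be told apart, and the part of these shifts in the FGF results was not tested.

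**Figure D1:**
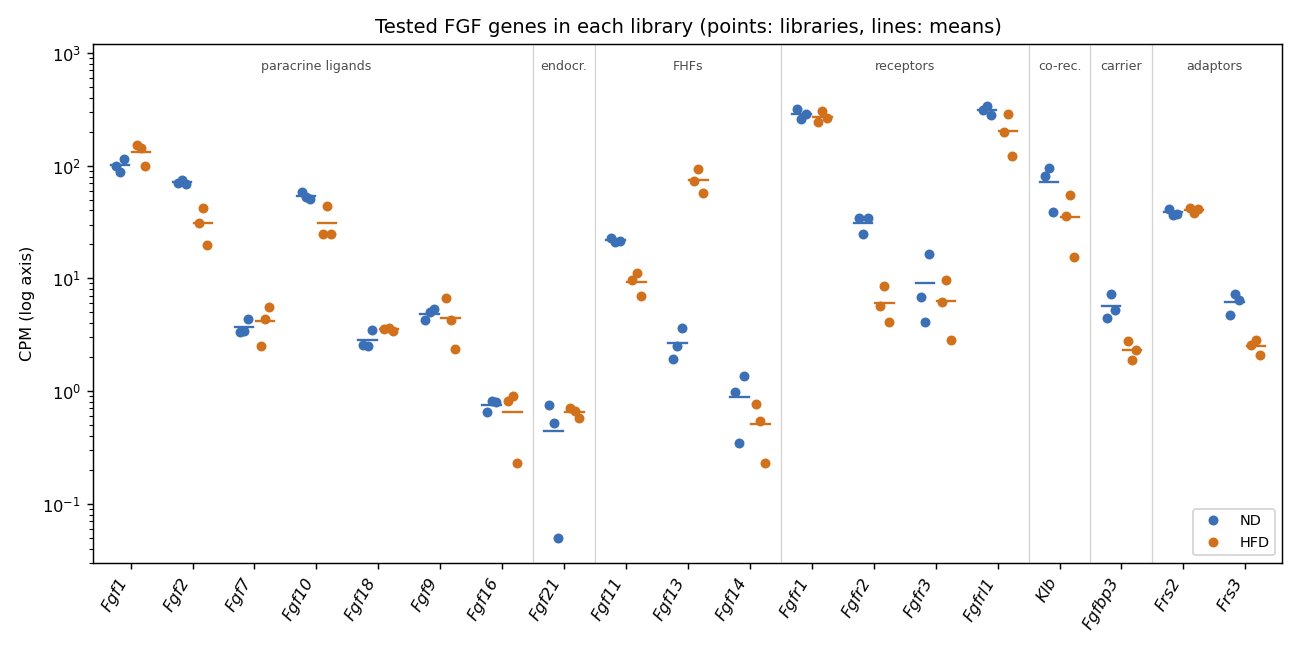
CPM on a log axis for the 19 tested FGF genes, with 1 point per library, horizontal lines at the mean of the 3 ND or 3 HFD libraries, and genes grouped by role (FHFs, homologous factors; co-rec., co-receptor). Fgf13 stands at 1.94 to 3.65 CPM under ND, against 57.0 to 92.4 CPM under HFD, while Fgfr2 stands at 24.5 to 34.6 CPM under ND, against 4.09 to 8.49 CPM under HFD.

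The largest differences in each direction were those of Fgf13 and Fgfr2, and the DNA before a start site of each is shown for that reason. Each line gives the 250 bases upstream of a RefSeq start site, 5′ to 3′ on the gene's strand, with copies of the GC box GGGCGG (or CCGCCC, its form on the other strand) in capitals. The Fgf13 window is chrX:59134437-59134686 and the Fgfr2 window is chr7:130266809-130267058 of GRCm38.p6, both on the minus strand.
Fgf13: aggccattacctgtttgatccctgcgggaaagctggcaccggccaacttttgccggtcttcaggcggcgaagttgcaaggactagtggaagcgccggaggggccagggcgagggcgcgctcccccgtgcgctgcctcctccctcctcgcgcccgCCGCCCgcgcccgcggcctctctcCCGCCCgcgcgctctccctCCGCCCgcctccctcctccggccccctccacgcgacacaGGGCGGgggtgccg
Fgfr2: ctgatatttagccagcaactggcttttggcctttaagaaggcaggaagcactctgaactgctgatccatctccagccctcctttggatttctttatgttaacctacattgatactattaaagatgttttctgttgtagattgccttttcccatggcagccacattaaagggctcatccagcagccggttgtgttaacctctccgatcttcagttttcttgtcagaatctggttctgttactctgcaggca

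The Fgf13 window was 74.4% G or C with 31 CG dinucleotides and 4 GC boxes, a motif found in 32.7% of the 32851 RefSeq promoter windows of this length. The Fgfr2 window was 44.0% G or C with 2 CG dinucleotides, where the median over all promoters was 6 and the quartiles were 2 and 16. Neither window held AGGTCA (the half-site of nuclear receptors, in 14.0% of promoters), TTGCNNAA (a C/EBP motif, 9.56%), TATAAA (the TATA box, 12.4%) or CACGTG (an E-box, 6.02%), each searched on both strands. RefSeq lists 4 start sites for Fgf13, whose windows differed among themselves, and counts per gene do not tell which was used. The window before position 59567348 resembled the one shown, with 74.8% G or C, 33 CG dinucleotides and 3 GC boxes. The windows before 59585572 (45.6% G or C, 2 CG dinucleotides) and 59166088 (40.4% G or C, 6 CG dinucleotides) held no GC box and were closer to that of Fgfr2, and the latter held 1 TTGCNNAA. The window shown and that before 59585572 touch no annotated exon. A match or its absence describes these letters only.

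Fgf13, an intracellular homologous factor known to bind sodium channels and microtubules, rose most. The 3 ND libraries held 36, 43 and 73 reads of it, and the 3 HFD libraries 1327, 1534 and 990. Every HFD library was far above every ND library. Mean abundance was 2.70 ± 0.870 CPM under ND, against 74.0 ± 17.7 CPM under HFD (SD, n = 3 each), which was 27.3-fold higher (log2 fold change 4.77, standard error 0.29, adjusted p = 0.00128 by edgeR). Fgf13 (X:59062145-59568071 of GRCm38) shared no exon with another gene, and it passed in each of the 18 alternative settings, with an adjusted p of at most 0.0137.

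Fgf11, a second homologous factor, moved the other way. It measured 22.8, 20.9 and 21.3 CPM under ND, against 9.62, 11.1 and 6.91 CPM under HFD. Every HFD library was below every ND library, and the gene fell (log2 fold change -1.23, standard error 0.19, adjusted p = 0.0106 by edgeR). The call was lost without the first HFD library (adjusted p = 0.0528) or without the first ND library (0.0521). Fgf14 measured 0.972, 0.348 and 1.35 CPM under ND, against 0.765, 0.542 and 0.230 CPM under HFD. The groups overlapped, and the difference did not pass (log2 fold change -0.79, standard error 0.62, adjusted p = 0.406). Fgf12 had at most 11 counts in any library and was not tested.

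The 2 abundant homologous factors exchanged places. On the FPKM scale, which divides by gene length and so allows levels to be compared between genes, Fgf11 made up 90.9%, 90.7% and 84.1% of the summed FPKM of the 4 homologous factors under ND, against 14.8%, 13.7% and 13.7% under HFD. Fgf13 made up 8.33% ± 2.53 on ND and 85.3% ± 0.859 on HFD (SD, n = 3 each). The ratio of Fgf13 to Fgf11 was 0.0646, 0.0902 and 0.130 on ND and 5.71, 6.28 and 6.25 on HFD, so that the ranges of the diets lay far apart. The summed FPKM of the 4 genes was 7.73 to 8.39 on ND and 16.6 to 27.0 on HFD.

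**Figure D2:**
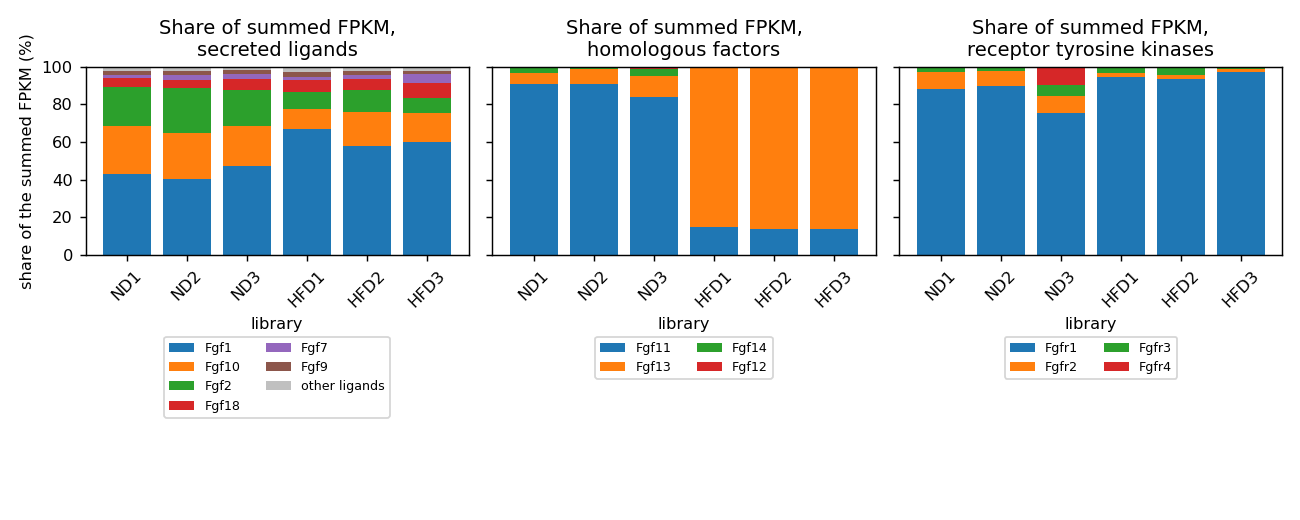
Share (%) of the summed FPKM in each of the 6 libraries held by each gene among the 18 secreted ligands, the 4 homologous factors and the 4 receptor tyrosine kinases. Fgf11 holds 84.1% to 90.9% of the homologous-factor FPKM on ND and Fgf13 holds 84.3% to 85.8% on HFD, while Fgfr1 leads the receptors in every library.

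Among the receptors, Fgfr2 fell and Fgfr1 did not pass the test. Fgfr2, the receptor whose epithelial form binds Fgf7 and Fgf10, had 637, 423 and 693 reads under ND, against 103, 141 and 71 under HFD. All HFD values lay below all ND values. The means were 31.2 ± 5.76 CPM under ND, against 6.07 ± 2.23 CPM under HFD (SD, n = 3 each), 5.14-fold lower on HFD (log2 fold change -2.36, standard error 0.29, adjusted p = 0.00652 by edgeR). It passed in all 18 alternative settings, with a highest adjusted p of 0.0407. The Fgfr2 gene model of this annotation runs from 130162451 to 133123350 on chromosome 7 and shares 314 exon bases with Ctbp2 on the same strand, so reads in those bases cannot be assigned to 1 of them. Ctbp2 had at most 670 counts, against 423 to 693 for Fgfr2 on ND and 71 to 141 on HFD.

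Fgfr1, the main FGF receptor of mesenchymal cells and adipocytes, measured 315, 259 and 288 CPM under ND, against 246, 303 and 266 CPM under HFD. The groups overlapped (log2 fold change -0.08, standard error 0.15, adjusted p = 0.740). Fgfr1 made up 84.5% ± 7.77 of the FPKM of the 4 receptor kinases on ND and 95.0% ± 1.98 on HFD, and Fgfr2 8.67% ± 0.532 and 2.0% ± 0.536 (SD, n = 3 each). The Fgfr1 share was lowest in ND3, at 75.6%, where Fgfr4 held 9.73%. The Fgfr1 to Fgfr2 ratio of FPKM was 9.59, 11.0 and 8.70 on ND and 45.8, 37.4 and 67.9 on HFD, with no overlap.

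Fgfrl1, a receptor-like protein that binds ligand but has no kinase domain, had the highest FPKM of all 33 genes in every library, at 102 to 125 on ND. It measured 310, 340 and 284 CPM under ND, against 197, 288 and 121 CPM under HFD. The second HFD library lay within the ND range, and the difference did not pass (log2 fold change -0.62, standard error 0.30, adjusted p = 0.187 by edgeR), although it did without that library (adjusted p = 0.0255).

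Fgfr3, Fgfr4 and the co-receptor Kl, the Klotho that serves Fgf23 in kidney tubules, were highest in ND3. Fgfr4 had 0, 2 and 266 counts under ND, against 1, 3 and 0 under HFD. For Kl the counts were 0, 1 and 207 under ND, against 1, 0 and 1 under HFD. Both were thus near 0 in 5 of the 6 libraries, and neither passed the filter. Fgfr3 measured 6.80, 4.12 and 16.5 CPM under ND, against 6.17, 9.70 and 2.82 CPM under HFD, with its highest value in ND3 and overlapping groups. Its log2 fold change of -0.56 ± 0.60 (SE, with adjusted p = 0.548) became 0.16 when ND3 was left out. Fgf14, Fgf12, Fgf17, Fgf5, Fgf22 and Fgf8 also had their highest CPM in ND3, at 27, 11, 7, 4, 3 and 1 counts. Fgfr2 did so by a small margin (34.6 CPM, against 34.4 CPM in the first ND library). The part of the epithelial and tubule RNA of that library in these genes was not tested.

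**Figure D3:**
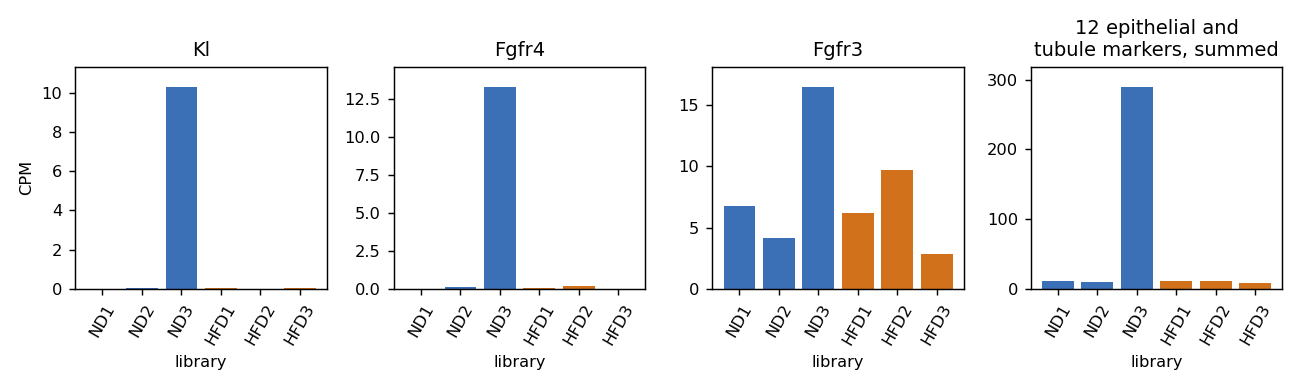
CPM of Kl, Fgfr4 and Fgfr3, and the summed CPM of 12 epithelial and tubule markers, as bars for each of the 6 libraries (blue, ND; orange, HFD; each panel has its own axis from 0). In all 4 panels ND3 is the highest bar, with 10.3 CPM for Kl, 13.3 CPM for Fgfr4, 16.5 CPM for Fgfr3 and 290 CPM for the markers.

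Klb, the co-receptor through which Fgf21 acts on adipocytes, measured 81.2, 95.5 and 38.5 CPM under ND, against 35.4, 55.2 and 15.4 CPM under HFD. ND3 fell within the HFD range, and the difference did not pass (71.8 ± 29.6 against 35.3 ± 19.9 CPM, SD, n = 3 each, log2 fold change -1.02, standard error 0.49, adjusted p = 0.188 by edgeR). Fgf21 itself was near the floor, with 14, 9 and 1 counts under ND, against 13, 11 and 10 under HFD. Its groups overlapped, and its log2 fold change of 0.56 ± 0.72 (SE, with adjusted p = 0.619) was -0.01 without ND3, where it had 1 count. The other endocrine ligands, Fgf15 and Fgf23, had at most 2 counts in any library.

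Fgf1 and Fgf2, paracrine ligands of the same subfamily that both leave cells without a classical secretion signal, were among the 3 most abundant ligands per length on ND, with Fgf10. Fgf2 measured 70.8, 75.0 and 68.5 CPM under ND, against 30.8, 41.7 and 19.8 CPM under HFD. It fell from 71.4 ± 3.28 to 30.8 ± 11.0 CPM (SD, n = 3 each), with all HFD libraries below all ND libraries (log2 fold change -1.22, standard error 0.25, adjusted p = 0.0219 by edgeR). The call was lost without the first HFD library (adjusted p = 0.0892) and without the first, the second or the third ND library (0.0734, 0.0774 and 0.0592). Fgf2 shares 640 exon bases with Nudt6 on the opposite strand, which had at most 149 counts, against 1293 to 1371 counts for Fgf2 on ND and 344 to 693 on HFD. The library kit named in the labels does not mark strand.

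Fgf1 measured 99.9, 88.2 and 114 CPM under ND, against 152, 144 and 99.5 CPM under HFD. The third HFD library fell within the ND range, and the difference did not pass (log2 fold change 0.39, standard error 0.19, adjusted p = 0.195 by edgeR). Without that library it passed (adjusted p = 0.0408). Of the summed FPKM of the 18 secreted ligands, Fgf1 held 43.6% ± 3.42 on ND and 61.6% ± 4.46 on HFD, Fgf2 held 21.3% ± 2.12 and 9.66% ± 1.71, and Fgf10 held 23.6% ± 2.32 and 14.6% ± 3.52 (SD, n = 3 each). Fgf1 was the most abundant ligand per length in all 6 libraries, and its ratio to Fgf2 was 1.72 to 2.43 on ND and 5.04 to 7.33 on HFD.

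Fgf10, a stromal ligand of the epithelial form of Fgfr2, measured 58.3, 52.7 and 50.2 CPM under ND, against 24.6, 43.9 and 24.7 CPM under HFD. Its HFD values all lay below its ND values, but it missed the threshold in edgeR's test (log2 fold change -0.79, standard error 0.24, adjusted p = 0.0622). DESeq2 called it lower (adjusted p = 0.0196), as did limma-voom (0.0450) and edgeR without the second HFD library (0.00207). Over the 18 alternatives its adjusted p ran from 0.00207 to 0.188. It shares 123 exon bases with the antisense gene Gm16263, which had at most 29 counts.

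Other paracrine ligands were low and overlapped between the diets. Fgf7, the keratinocyte growth factor of stromal cells, measured 3.35, 3.42 and 4.40 CPM under ND, against 2.51, 4.34 and 5.59 CPM under HFD. Fgf9 measured 4.26, 5.05 and 5.30 CPM under ND, against 6.67, 4.28 and 2.36 CPM under HFD. The HFD libraries of both spread more widely than the ND libraries, and the log2 fold changes were 0.15 (standard error 0.34) and -0.13 (standard error 0.38). Fgf18 measured 2.54, 2.49 and 3.50 CPM under ND, against 3.55, 3.61 and 3.40 CPM under HFD. Fgf16 measured 0.648, 0.812 and 0.800 CPM under ND, against 0.820, 0.903 and 0.230 CPM under HFD. Neither separated the diets (log2 fold changes 0.31 and -0.21, adjusted p = 0.459 and 0.812 by edgeR).

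The remaining genes were not detectable or barely so at this depth. Fgf3, Fgf4, Fgf6, Fgf15 and Fgf20 had no counts in any library, which allows up to 0.181 CPM. Fgf8, Fgf22, Fgf23 and the carrier Fgfbp1 had 1 to 3 counts at most. Fgf5 had at most 4 counts, Fgf17 at most 7 and Fgf12 at most 11. Altogether 9 of the 33 genes were at or under the floor in every library, and 14 were not tested.

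Fgfbp3, a carrier that releases FGFs from heparan sulfate in the matrix, measured 4.48, 7.25 and 5.25 CPM under ND, against 2.79, 1.87 and 2.30 CPM under HFD. It fell without overlap (log2 fold change -1.28, standard error 0.30, adjusted p = 0.0305 by edgeR). Leaving out the second HFD library kept the call, while leaving out the first or the third HFD library (adjusted p = 0.0827 and 0.0526) or the first, the second or the third ND library (0.0683, 0.0986 and 0.0610) ended it.

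Of the docking adaptors, Frs3, the one best known from nervous tissue, measured 4.75, 7.19 and 6.40 CPM under ND, against 2.57, 2.83 and 2.07 CPM under HFD. It fell without overlap (log2 fold change -1.29, standard error 0.27, adjusted p = 0.0231 by edgeR), a call lost without the first HFD library (0.0896) and without the first, the second or the third ND library (0.0546, 0.0834 and 0.0591). Frs2, the broadly expressed adaptor, measured 41.6, 36.6 and 37.4 CPM under ND, against 41.9, 37.9 and 41.2 CPM under HFD. These ranges overlapped, and the log2 fold change was 0.07 ± 0.11 (SE, with adjusted p = 0.701). Per length, Frs2 at 4.27 to 4.84 FPKM exceeded Frs3 at 0.664 to 2.35 FPKM in every library. Frs3 shares 69 exon bases with Tomm6os on the same strand, which had at most 27 counts, against 36 to 128 for Frs3.

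**Figure D4:**
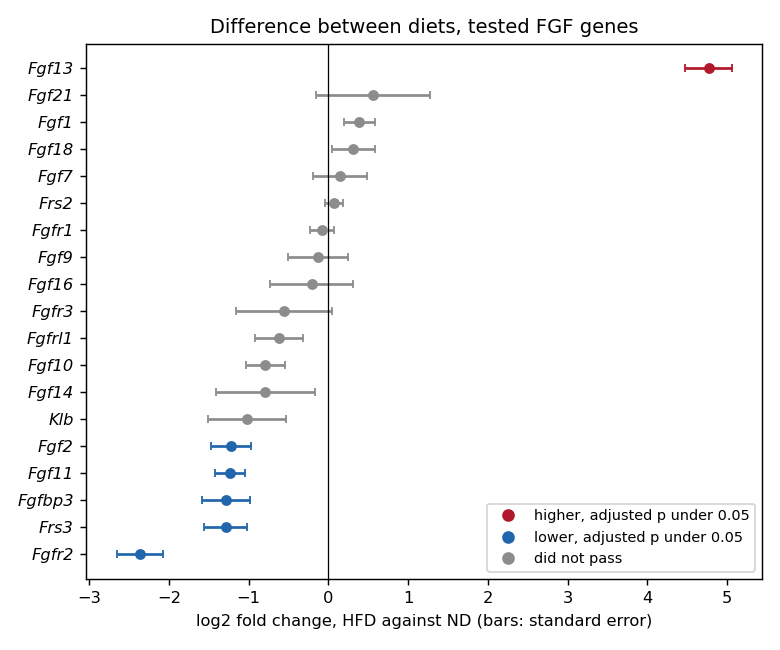
Log2 fold change of HFD against ND for the 19 tested FGF genes in order of size, with bars of 1 standard error and colour for genes past an adjusted p of 0.05 in edgeR's quasi-likelihood test. Fgf13 stands alone at 4.77, Fgfr2 is lowest at -2.36, and Fgf11, Fgf2, Fgfbp3 and Frs3 lie between -1.29 and -1.22.

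Within the HFD group, the third library had the lowest value of the 3 in 5 of the 6 genes that passed, all but Fgfbp3, Fgf13 included. That library also had the lowest sum of adipocyte markers (14900 CPM) and the highest sum of macrophage markers (8110 CPM), whose part in these values was not tested. The second HFD library had the highest HFD value of 12 of the 19 tested genes, Fgf13 as well as Fgf2, Fgf10, Fgf11, Fgf16, Fgf18, Fgfr1, Fgfr2, Fgfr3, Fgfrl1, Klb and Frs3, and the highest HFD sum of adipocyte markers (35800 CPM). In the ND libraries the order by FPKM was Fgfrl1 (102 to 125), Fgfr1 (26.8 to 32.5) and Fgf1 (19.3 to 24.7), whose ranges did not overlap. Klb (8.51 to 21.4), Fgf10 (11.0 to 12.9) and Fgf2 (10.1 to 11.3) came next, with overlapping ranges. The range of Klb also overlapped that of Fgf1, and in the second ND library Klb was above Fgf1 (21.4 against 19.3).

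The genes that relay the receptor signal were read from the same test. Of 17 relay genes, 2 rose, 0 fell and 15 did not pass, and the median log2 fold change was 0.14. The share that passed was 11.8%, beside 15.9% of all genes tested. Grb2, the adaptor that links Frs2 to Sos, measured 107, 114 and 90.5 CPM under ND, against 184, 156 and 258 CPM under HFD (log2 fold change 0.94, standard error 0.21, adjusted p = 0.0261 by edgeR). Cbl, a ubiquitin ligase that tags activated receptors, measured 79.2, 82.3 and 72.7 CPM under ND, against 129, 120 and 174 CPM under HFD (log2 fold change 0.85, standard error 0.16, adjusted p = 0.0178). The diets did not overlap in either gene, and both calls were lost without the first HFD library or without any 1 of the ND libraries, with adjusted p values up to 0.0931 for Grb2 and 0.0747 for Cbl. DESeq2 also called 2 relay genes higher and 0 lower, beside 2033 higher and 1596 lower of all 28568 genes with counts.

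Of 21 feedback and target genes of FGF signalling, 4 rose, 1 fell and 16 did not pass, with a median log2 fold change of 0.19. The share that passed was 23.8%, beside 15.9% of all genes tested. Spry1, Spry4, Dusp6 and Etv4, textbook FGF-responsive genes, did not pass, with log2 fold changes of 0.03, -0.17, 0.19 and 0.28. Etv5, an ETS factor of the same kind, measured 15.2, 13.2 and 12.5 CPM under ND, against 25.0, 20.5 and 26.5 CPM under HFD (log2 fold change 0.82, standard error 0.16, adjusted p = 0.0172 by edgeR). The call of Etv5 was lost without the first HFD library (adjusted p = 0.0859) and without the first, the second or the third ND library (0.0546, 0.0691 and 0.0617). Fos, an immediate early gene that many other stimuli also induce, measured 10.4, 6.90 and 6.60 CPM under ND, against 89.9, 40.7 and 109 CPM under HFD (log2 fold change 3.33, standard error 0.39, adjusted p = 0.00640). Fos passed in all 18 alternatives.

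The other calls of that list lay close to the threshold. Dusp5, a nuclear phosphatase of MAP kinases, and Spred1, a Ras pathway inhibitor, rose with log2 fold changes of 1.82 and 0.85 (adjusted p = 0.0441 and 0.0489 by edgeR). Dusp4, a further MAP kinase phosphatase, fell with a log2 fold change of -0.97 (adjusted p = 0.0432). Dusp5 and Spred1 each passed in 1 of the 6 fits that left out a library, the one without the second HFD library, and Dusp4 in 2 of them, without that library or without ND3. Adjusted p values elsewhere reached 0.144, 0.153 and 0.135 for Dusp5, Spred1 and Dusp4 in those fits.

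Of 34 genes for heparan sulfate, its core proteins and the enzymes that build or cleave it, 26 were tested, 5 rose, 2 fell and 19 did not pass. The share that passed was 26.9%, beside 15.9% of all genes tested, and the median log2 fold change was 0.03. Gpc1, a glypican core protein, measured 14.9, 19.2 and 21.0 CPM under ND, against 44.6, 58.7 and 75.5 CPM under HFD, without overlap (log2 fold change 1.70, standard error 0.22, adjusted p = 0.00756 by edgeR). Gpc1 passed in all 18 alternatives. The syndecan core proteins Sdc1 and Sdc3 rose with log2 fold changes of 2.15 and 1.74 (adjusted p = 0.0200 and 0.0116), and Hs3st3b1, which adds a 3-O-sulfate, fell with -1.64 (adjusted p = 0.0154).

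Without the first HFD library the adjusted p of Sdc1, Sdc3 and Hs3st3b1 was 0.0651, 0.0528 and 0.0753, without the first ND library 0.0546, 0.0546 and 0.0523, and without the second 0.0820, 0.0567 and 0.0545. Sdc1 also missed it without ND3 (0.0704). The 3 further genes that passed, named here because of their result, were the sulfotransferase Hs6st1 and the heparanase Hpse, which rose (log2 fold changes 1.24 and 1.10), and the glypican Gpc4, which fell (-0.73). All 3 calls were lost without the first HFD library or without the first or second ND library, those of Hpse and Gpc4 also without ND3, with adjusted p values of 0.0929 to 0.105 at the highest. The 8 macrophage markers that rose moved in the same direction as Gpc1, Sdc1 and Sdc3, and their part in these differences was not tested.

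**Figure D5:**
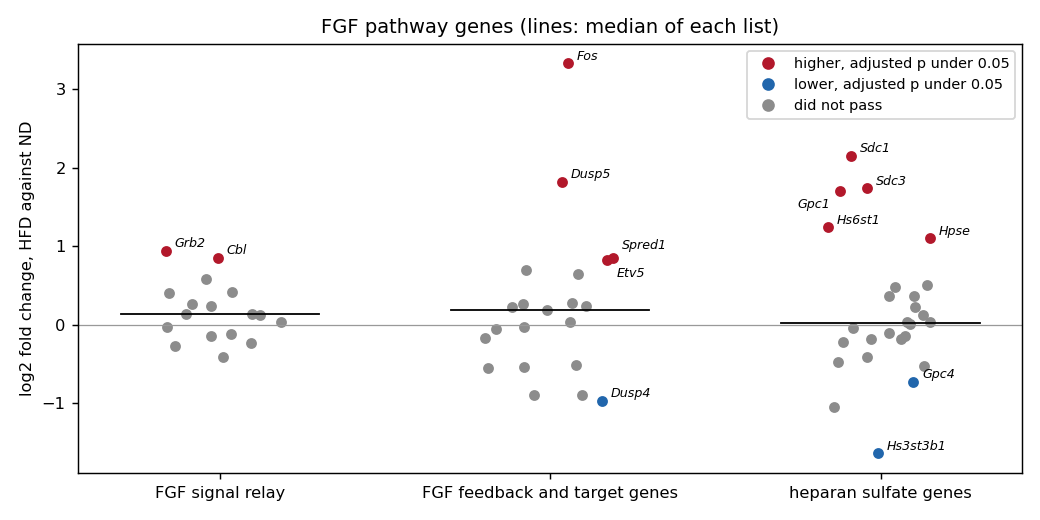
Log2 fold change of HFD against ND for each tested gene of the lists for signal relay (17 genes), feedback and target genes (21) and heparan sulfate (26), with a line at each list's median and names for genes past an adjusted p of 0.05. The medians lie at 0.14, 0.19 and 0.03, and Fos is highest at 3.33.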

How the data were processed

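RNA was extracted from epididymal fat with TRIzol and sequenced after preparation with the NEBNext Ultra RNA kit, per the labels. The authors deposited raw read counts per gene and FPKM values, each a count divided by a gene length and a library factor. The study's methods name TopHat and Cufflinks on GRCm38, whereas the submitters' processing notes list HISAT2 2.0.5, featureCounts 1.5.0-p3 and the human build GRCh38. The identifiers are mouse Ensembl identifiers, of which 54495 of 54532 were found in GENCODE M21, and the annotation release behind the counts is not given in the sources used here.

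Counts were tested with edgeR 4.0.16 in R 4.3.3 (TMM, filterByExpr, glmQLFit with robust fitting, diet as the only term), with Benjamini-Hochberg adjustment over 15751 genes and a threshold of 0.05. Standard errors were derived from the F statistic. The alternatives, 18 in all, used DESeq2 1.42.0, limma-voom and limma 3.58.1 on log2(FPKM + 1) or log2(FPKM + 0.1) with FPKM 0.5 or more required in 3 libraries, or no such filter, other scalings and filters (none, or at least 10 counts in 3 libraries), protein-coding genes only, non-robust fitting, a replicate block, and each library left out. The main edgeR fit, DESeq2 and limma-voom were tested on simulated counts, and the other alternatives were not. Pooling of animals is not stated, so p-values measure the spread between these 3 libraries per diet. Floors cover counting error only.

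Every FGF gene was accounted for. Statistics are given for genes that passed, for Fgf1, Fgf10, Fgf21, Fgfr1 and Klb, for up to 4 genes that passed per pathway list and for Spry1, Spry4, Dusp6, Etv4 and Etv5, and other tested FGF genes were given theirs as description. The genes and lists were chosen with earlier results of these data known. Promoter windows came from RefSeq, GRCm38.p6, in which 26 of the 33 genes were matched.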

Additional observations from a re-analysis of the deposited data

How the results depend on the processing

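The call of Fgf13 as higher and those of Fgfr2 and the list genes Fos and Gpc1 held in all 18 alternatives, and every other call of an FGF gene or of a named relay, feedback or heparan sulfate gene was lost without at least 1 of the 6 libraries. The number of all genes that passed was 2504 with every library, 474 without HFD library 1 and 492 without ND library 1. It was 591 without ND library 2, 1003 without ND3, 2095 without HFD library 3 and 3940 without HFD library 2. Where leaving out 1 library lost the call, the log2 fold change was -1.29 to -1.20 for Fgf11 and -1.27 to -1.18 for Fgf2. It was -1.47 to -1.06 for Fgfbp3 and -1.45 to -1.16 for Frs3. The calls of cell type markers and of neighbouring genes were not recomputed. Leaving out 1 library at a time gave 1 to 2 FGF genes higher and 1 to 7 lower. The same fits gave 0 to 5 relay genes higher and 0 to 0 lower, 1 to 5 feedback and target genes higher and 0 to 1 lower, and 1 to 5 heparan sulfate genes higher and 0 to 3 lower. With limma on log2(FPKM + 1) without a filter, 3 FGF genes were lower, 0 relay genes, 2 feedback genes and 1 heparan sulfate gene were higher, and 0 feedback genes and 1 heparan sulfate gene were lower. On log2(FPKM + 0.1) the counts were 1 relay and 2 feedback genes higher, with 0 feedback genes and 1 heparan sulfate gene lower. Feedback genes numbered 2 higher and 0 lower by limma on log2(FPKM + 1) and by limma-voom, 2 higher with library size only, and 0 lower without a filter. Over all genes, 910 of 28568 passed with limma on log2(FPKM + 1) without a filter. With its filter 2152 of 14784 passed, and 1785 of 14784 on log2(FPKM + 0.1). By limma-voom 2361 of 15751 passed, with library size only 2331 of 15751, and by edgeR without a filter 2163 of 28568. The cause was not tested.

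With the replicate block, 1886 of all genes passed, 1 relay gene was higher, and 0 feedback genes and 1 heparan sulfate gene were lower. In that fit 4 FGF genes were lower, Klb passed (adjusted p = 0.0201 by edgeR), and Fgfbp3 (0.0832) and Frs3 (0.0526) did not. The deviations of same-numbered libraries correlated at -0.0858, -0.0556 and -0.00532, and the first ND library correlated best with the second HFD library (0.11). The sample titles state no pairing beyond the number. With 3 libraries per diet, these correlations cannot tell whether same-numbered libraries shared a step of handling.

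Of the 14 untested genes, 12 had at most 11 counts in any library, and whether greater depth would detect more of them was not tested. The exceptions were Fgfr4 and Kl, which had 266 and 207 counts in ND3 and at most 3 in any other library. Genes with counts near the floor such as Fgf21, Fgf14 and Fgf16 have standard errors of 0.52 to 0.72. Among genes that did not pass, the sign changed in 1 of the 18 alternatives for each of Fgf7, Fgf9, Fgf16, Fgf21, Fgfr3 and Dusp6, in 2 for Spry4, in 3 for Spry1 and in 2 of 16 for Etv4.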

Other observations

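The genes near the FGF genes that passed were also read from the test, in which 15.9% of all genes passed. Within 500 kb of Fgf13, 1 gene was tested, Gm5637, and it was higher on HFD. Within the same distance of Fgf2, 6 genes were tested and 0 passed. Around Fgfr2, 21 genes were tested, of which 1 was higher and 2 were lower (Nsmce4a, Plekha1 and Acadsb). Distances were taken from the ends of each gene model, which for Fgfr2 runs from 130162451 to 133123350. Genes inside that long model were therefore counted too, and can lie more than 500 kb from its start site. Around Fgf11, in a gene-dense stretch of chromosome 11, 56 genes were tested, of which 3 were higher and 3 were lower, among them the macrophage gene Cd68 and the insulin-responsive glucose transporter Slc2a4. Around Fgfbp3, 11 genes were tested and 1 was lower, Ppp1r3c, and around Frs3, 15 were tested, with 3 higher and 1 lower. These genes were named because of their result.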
